A study of Homo sapiens with 9 samples.

Results

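The genes described here are 10 transcription regulators that are linked to the mesenchymal state of glioblastoma: RUNX1, RUNX2, RUNX3 and their partner CBFB, the C/EBP factors CEBPB, CEBPD and CEBPG, the repressor BHLHE40, the cytokine-activated factor STAT3, and the NF-kappaB subunit RELB. They were chosen by symbol, and all 10 were among the 18364 genes of the deposited table. RNA was sequenced from intracranial tumours of LN229, a long-used human glioblastoma line, which were grown in nude mice and taken when disease was terminal. Tumours labelled TAZ-4SA (n = 6) came from LN229 cells that carry the TAZ-4SA form of the co-activator TAZ, and tumours labelled EV (n = 3) from LN229-EV cells, which the series' design text calls vector tumours. All 9 tumours share the cell line, the site of injection and the nude mouse host. The sources used here do not give the promoter of the construct, the age of the mice or whether a line is a single clone. The labels do not tie tumours to animals, so p-values measure only the spread between these samples. Nude mice lack a thymus and T cells but keep myeloid cells. The question the series names is how active TAZ drives the progression of glioblastoma.

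Glioblastomas with a mesenchymal expression pattern carry wound-response, matrix and inflammatory genes, and STAT3, C/EBP beta and delta, RUNX1, FOSL2 and BHLHE40 are known as regulators of that pattern. RUNX proteins bind DNA as heterodimers with CBF beta, which CBFB encodes. C/EBP proteins bind as dimers with one another, STAT3 is switched on by phosphorylation below cytokine receptors, and RELB acts with the product of NFKB2 in the non-canonical NF-kappaB pathway. TAZ, the product of WWTR1, works through TEAD factors, which often share enhancers with AP-1 factors. RNA levels do not show phosphorylation, cleavage or the place of these proteins in the cell.

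Recovered reads per library ran from 3144861 to 31468135 in TAZ-4SA and from 17314672 to 21576264 in EV. The TAZ-4SA libraries had 2990 to 7365 genes at 0 reads, against 505 to 622 in EV. A floor of 3 reads was worth 0.108 to 0.917 CPM (read counts scaled to library size) in TAZ-4SA and 0.141 to 0.193 CPM in EV. WWTR1, the gene of the construct, was at 331 ± 74.6 CPM (SD, n = 6) in TAZ-4SA tumours against 120 ± 3.17 CPM (SD, n = 3) in EV, with no overlap between groups. Its difference of 1.44 in mean log2 CPM had an exact two-sided permutation p of 0.02381, the smallest that the 84 arrangements allow. Without any 1 EV tumour the exact permutation p was 0.07143, again the smallest allowed. Over the 15578 genes tested, the median log2 fold change (TAZ-4SA over EV, limma on the deposited log2 CPM) was -0.85, and quantile normalization moved it to -0.15, so a gene at 0 is above the typical gene of these libraries.

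RUNX1, RUNX2, CBFB and CEBPG rose in the TAZ-4SA tumours. RUNX2 had the largest increase of the 10 genes, from a mean of 8.51 to 102 CPM. CEBPB, CEBPD, BHLHE40, STAT3, RELB and RUNX3 did not pass the test. A gene was called when its limma p, adjusted by Benjamini-Hochberg over all genes tested, was under 0.05. By this rule 4 of the 10 genes were called higher and 0 lower, against 9.02% of all genes called higher and 13.3% called lower. Among the 10447 genes at a mean of at least 10 CPM the split was the other way, with 1392 called higher and 967 lower. Of the 9 regulators tested there, 4 were called higher and 0 lower. For these 4 genes every TAZ-4SA tumour was above every EV tumour, as it was for 10.8% of all genes. Over all genes 1405 were called higher and 2079 lower, a split that quantile normalization turned to 1920 and 1624, while the count of the 10 regulators stayed at 4 higher and 0 lower. The median log2 fold change of the 10 was 1.09. At an unadjusted p under 0.05 and with a negative fold change stood STAT3 only, and other forms of the test called it lower, as given with its values. In bulk tumours fewer cells of a type and less RNA per cell cannot be told apart.

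**Figure D1:**
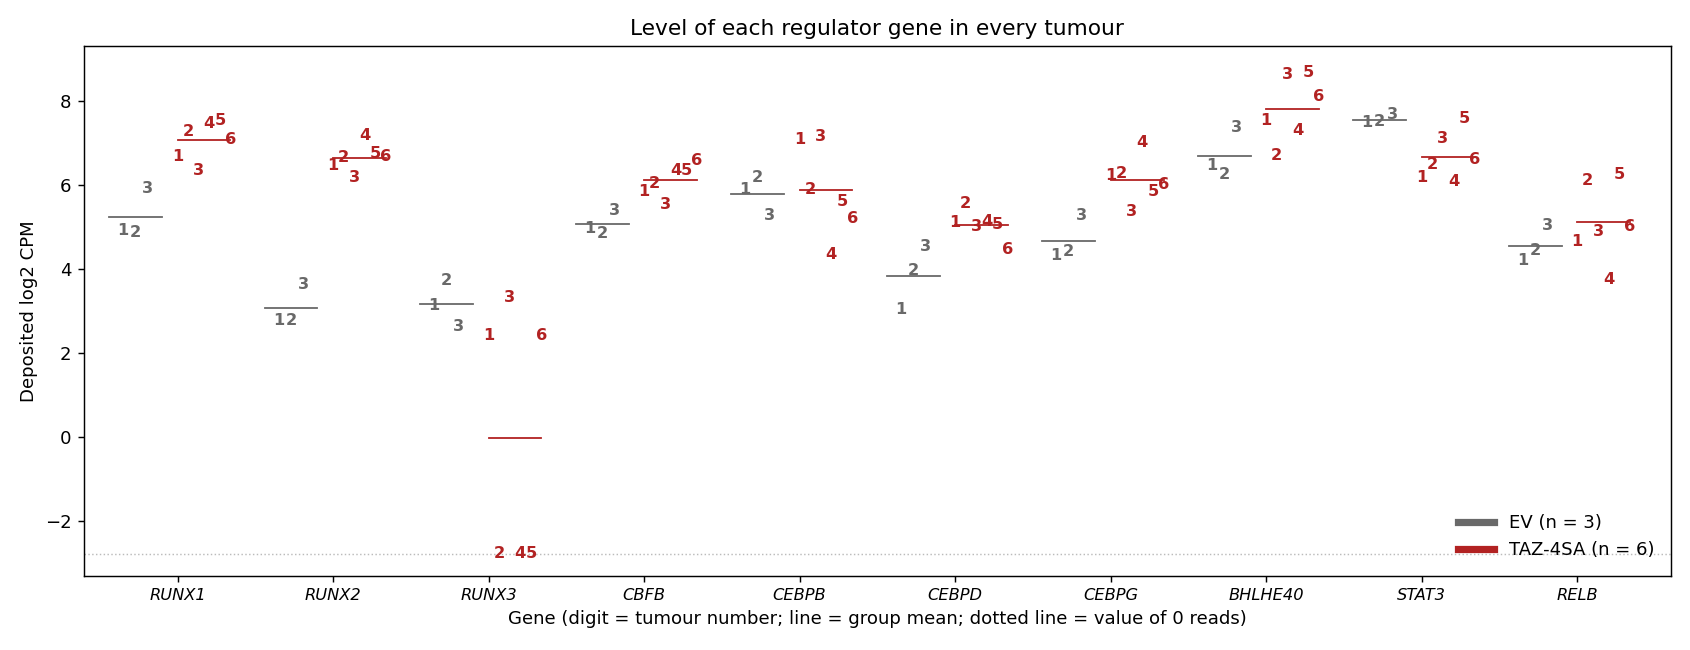
Deposited log2 CPM (vertical axis) of each regulator gene (horizontal axis) in the 9 tumours, with a digit for each tumour's number, grey for EV (n = 3) and red for TAZ-4SA (n = 6), a line for the group mean and a dotted line at the value of 0 reads. All 6 TAZ-4SA tumours lie above all 3 EV tumours for RUNX1, RUNX2, CBFB and CEBPG, and RUNX3 sits on the dotted line in TAZ-4SA tumours 2, 4 and 5.

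**Figure D2:**
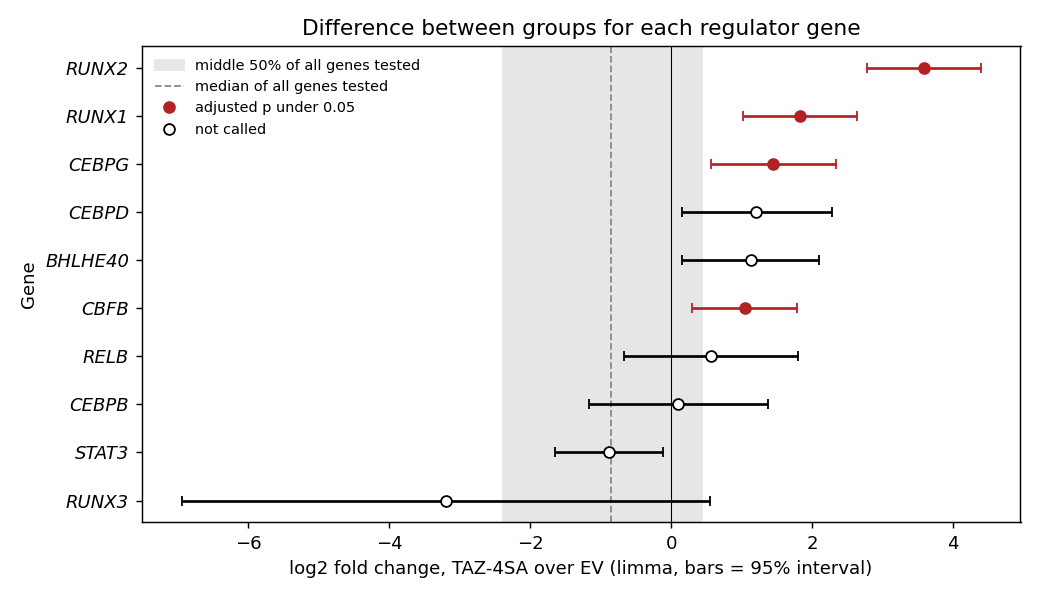
log2 fold change of TAZ-4SA over EV (horizontal axis) for each gene (vertical axis) with its 95% interval from limma, filled red where the adjusted p was under 0.05. The grey band holds the middle 50% of all genes tested and the dashed line their median of -0.85. STAT3 lies at -0.88. The 10447 genes at a mean of at least 10 CPM had a median of -0.41, which is not drawn.

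RUNX1, a master factor of blood cell formation, was read at 102, 154, 80.1, 175, 184 and 135 CPM in TAZ-4SA tumours 1 to 6 and at 29.8, 28.8 and 60.3 CPM in EV tumours 1 to 3. The lowest TAZ-4SA tumour, number 3, was above the highest EV tumour, number 3. Means were 138 ± 40.9 CPM (SD, n = 6) and 39.6 ± 17.9 CPM (SD, n = 3). TAZ-4SA exceeded EV by a log2 fold change of 1.83 ± 0.37 (SE; 95% interval 1.02 to 2.64; limma adjusted p = 0.004278), which lay at percentile 92.6 of all genes tested. Each of the 9 fits without 1 tumour also called RUNX1 higher. RUNX1 lies at chr21:34787801-35049302 (GRCh38, minus strand).

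RUNX2, the master factor of bone formation, was at 87.2, 99.5, 71.4, 144, 107 and 102 CPM in TAZ-4SA tumours 1 to 6 and at 6.65, 6.69 and 12.2 CPM in EV tumours 1 to 3. Every TAZ-4SA tumour was far above every EV tumour, and the tumours within TAZ-4SA lay close together. The ratio of the mean CPM was 12-fold, and the log2 fold change was 3.59 ± 0.37 (SE; 95% interval 2.78 to 4.39; limma adjusted p = 4.897e-05). Only 240 of the 15578 genes had a larger positive fold change. Without each tumour in turn the fold change ran from 3.44 to 3.87 and was called each time. RUNX2 lies at chr6:45328330-45551082 (plus strand).

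RUNX3, the family member best known from lymphocytes and sensory neurons, was at 5.18, 0, 9.77, 0, 0 and 5.2 CPM in TAZ-4SA tumours 1 to 6 and at 8.62, 13.1 and 6 CPM in EV tumours 1 to 3. In TAZ-4SA tumours 2, 4 and 5 it had 0 reads, while tumour 3 lay within the EV range, so 5 of the 6 TAZ-4SA tumours were below all EV tumours. A count of 0 allows up to 0.303 CPM in tumour 2, 0.108 CPM in tumour 4 and 0.840 CPM in tumour 5, counting error only. The log2 fold change of -3.19 ± 1.72 (SE) had a 95% interval of -6.94 to 0.55 and did not pass the test (limma adjusted p = 0.1961). Its size rests on the tumours at 0 reads. The ratio of mean CPM was 0.364, and with a pseudocount of 2 CPM the log2 fold change was -1.40 (limma adjusted p = 0.1631). The gene lies at chr1:24899511-24965138 (minus strand).

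CBFB, whose product stabilises RUNX proteins on DNA, was at 57.3, 65.2, 46.1, 80.9, 80.0 and 94.4 CPM in TAZ-4SA tumours 1 to 6 and at 30.7, 28.4 and 42.0 CPM in EV tumours 1 to 3. The groups did not overlap, but the lowest TAZ-4SA tumour, number 3, was close to EV tumour 3. A log2 fold change of 1.05 ± 0.34 (SE; 95% interval 0.30 to 1.79; limma adjusted p = 0.04604) was just inside the threshold. The call was lost without TAZ-4SA tumour 1, 4 or 6, with limma adjusted p of 0.05159, 0.06644 and 0.07601, and without EV tumour 1, 2 or 3, with 0.2029, 0.2269 and 0.09231. CBFB lies at chr16:67029149-67101058 (plus strand).

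Read together, the mix of RUNX transcripts differed between groups. The ratio of RUNX2 reads to RUNX1 reads, which needs no scaling between libraries, was 0.202 to 0.232 in the EV tumours and 0.581 to 0.890 in the TAZ-4SA tumours, with no overlap. Scaled by transcript length (CPM per kb of the median protein-coding transcript), the 3 RUNX genes summed to 29.5 ± 11.4 (SD, n = 3) in EV and 115 ± 30.2 (SD, n = 6) in TAZ-4SA. RUNX2 made up 7.55% ± 0.10 (SD, n = 3) of that sum in EV and 23.6% ± 2.73 (SD, n = 6) in TAZ-4SA. With the longest transcript of each gene in place of the median, the shares were 16.2% and 47.5%, so the size of the share rests on the length used while the higher share in TAZ-4SA does not. By median lengths only, CBFB stood at 1.37 to 1.89 times the summed RUNX level per kb in EV and at 0.742 to 1.17 times in TAZ-4SA. These sums follow the same reads as the fold changes and add no separate test.

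**Figure D3:**
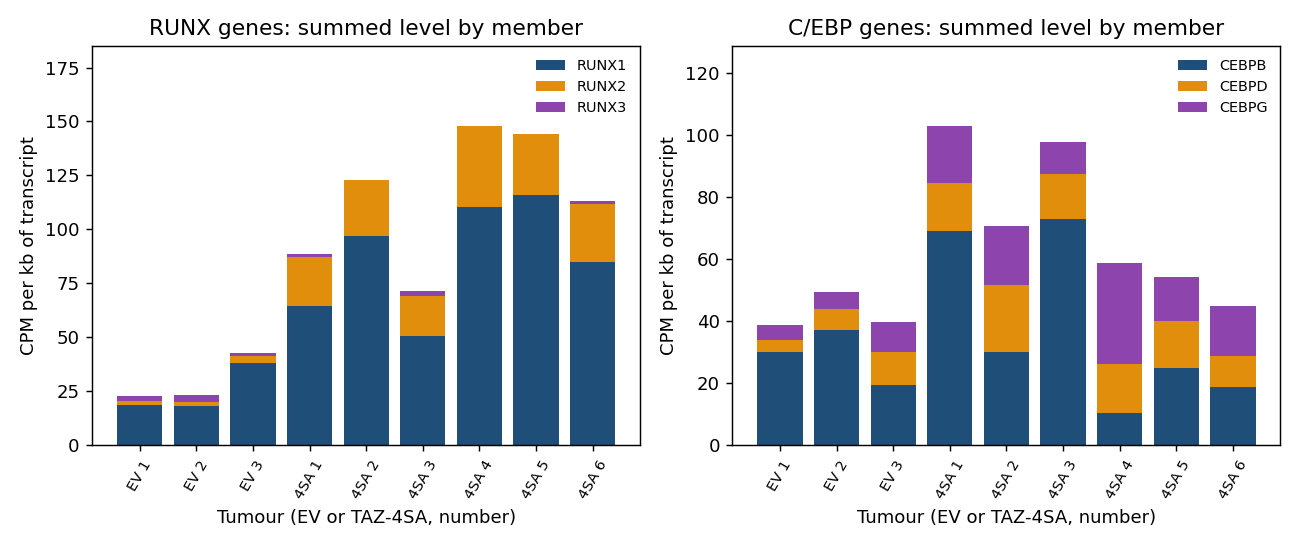
Length-scaled level (CPM per kb of the median protein-coding transcript, vertical axes from 0) of the 3 RUNX genes (left) and the 3 C/EBP genes (right), stacked for each of the 9 tumours. RUNX sums are 71.6 to 148 in TAZ-4SA and 22.7 to 42.7 in EV, and the CEBPB segment is largest in TAZ-4SA tumours 1 and 3.

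The promoters of the RUNX genes are shown because windows of RUNX1 and RUNX2 hold, before a start site, letters that TEAD, AP-1 or RUNX factors recognise. RefSeq promoter windows (GRCh38.p14) matched 7 of the 10 genes with 11 start sites. The motifs were searched on both strands in the 250 bases before each start: TEAD as GGAATG or CATTCC, AP-1 as TGANTCA, and RUNX as TGTGGT or ACCACA. Capitals mark these letters in the lines that follow, each written 5′ to 3′ on the gene's own strand. The lines hold no base of a GENCODE exon, except the second RUNX2 line, a 30-base stretch inside one. The RUNX1 window is that of a start site 160603 bases inside the gene's 5′ end, and the window of the outermost start is not analysed here. The second RUNX2 start is likewise inside the gene. The last 17 bases of the RUNX3 line lie within the RefSeq bounds of RUNX3.
RUNX1, chr21:34888700-34888949, minus strand: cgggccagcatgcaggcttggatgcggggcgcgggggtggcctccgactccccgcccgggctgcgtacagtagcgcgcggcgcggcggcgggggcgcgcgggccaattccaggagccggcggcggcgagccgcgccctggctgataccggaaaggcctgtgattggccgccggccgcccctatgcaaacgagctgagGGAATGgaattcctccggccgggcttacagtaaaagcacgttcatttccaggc
RUNX2 first start, chr6:45328080-45328156, plus strand: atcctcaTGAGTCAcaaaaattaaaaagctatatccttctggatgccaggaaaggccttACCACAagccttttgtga
RUNX2 second start, chr6:45422222-45422251, plus strand: cccaagggacccCATTCCaagctgcaaact
RUNX3 first start, chr1:24965122-24965260, minus strand: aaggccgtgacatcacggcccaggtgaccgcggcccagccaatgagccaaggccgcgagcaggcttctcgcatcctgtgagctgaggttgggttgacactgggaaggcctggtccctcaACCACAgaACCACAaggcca
The TEAD letters lie 53 to 48 bases before this internal RUNX1 start and 41 to 36 bases before the second RUNX2 start, and 10.3% of 19776 promoters hold them in the same window. The AP-1 letters lie 243 to 237 bases before the first RUNX2 start, and 4.88% of promoters hold them. The RUNX letters occur at 2 places each before the first RUNX2 start, of which the printed line holds 1, and before the first RUNX3 start, and 8.99% of promoters hold them. These matches are descriptions of letters and were set beside no binding data. Of the 11 start sites, 2 held TEAD letters, 1 AP-1 letters and 2 RUNX letters. STAT letters (TTCNNNGAA), held by 5.62% of promoters, were in none, C/EBP letters (TTNNGNAA, held by 26.0%) in 1, and the E-box CACGTG (held by 7.67%) in 1, that of BHLHE40.

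Genes of the pathways around the 10 regulators are given next by list. Each count is to be read against the 9.02% of all genes called higher and the 13.3% called lower. The 10447 genes at a mean of at least 10 CPM split the other way, with 1392 called higher and 967 lower. Of 14 cofactors of RUNX tested, 2 were called higher, 3 lower and 9 not, with a median log2 fold change of -0.41, counts close to those shares. EP300, an acetyltransferase that RUNX proteins recruit, rose from 111 ± 29 CPM (SD, n = 3) to 239 ± 36.4 CPM (SD, n = 6) (log2 fold change 1.13, limma adjusted p = 0.009208). The Groucho-type corepressors TLE2 and TLE5 and the corepressor CBFA2T2 fell. TLE5 was at 408 ± 14.7 CPM in EV and 212 ± 61.9 CPM in TAZ-4SA (limma adjusted p = 0.02089). TLE2 was at 52.4 ± 3.35 CPM in EV and 3.69 ± 7.50 CPM in TAZ-4SA, where 4 of 6 tumours had 0 reads (limma adjusted p = 0.0188). CBFA2T2 went from 114 ± 46.2 CPM to 26.9 ± 17.1 CPM (limma adjusted p = 0.02089). Calls of EP300 and CBFA2T2 were lost without EV tumour 1 or 2, and those of TLE2 and TLE5 without any 1 EV tumour, with limma adjusted p up to 0.09589 for EP300, 0.1154 for CBFA2T2, 0.07835 for TLE2 and 0.1137 for TLE5. The corepressor scaffold SIN3A (-0.46, limma adjusted p = 0.2434) and the acetyltransferase CREBBP (0.04, limma adjusted p = 0.9425) did not pass.

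Of the genes that RUNX2 is known to switch on in bone, COL1A1 rose and SPP1 fell. Of 9 tested, 1 was called higher, 1 lower and 7 not, and their median log2 fold change was -1.20. After quantile normalization 2 were called higher and 0 lower, with a median of 0.73. COL1A1, the alpha 1 chain of type I collagen, rose from 113 ± 42.5 CPM (SD, n = 3) to 3210 ± 1260 CPM (SD, n = 6), a log2 fold change of 4.83 (limma adjusted p = 2.392e-06), and kept its call without each tumour in turn. COL1A2, the partner chain, was at 95.5 ± 26.2 CPM in EV and 123 ± 76.3 CPM in TAZ-4SA (0.12, limma adjusted p = 0.8898). SPP1, encoding osteopontin, fell from 106 ± 12.2 to 29.4 ± 30.8 CPM (-2.51, limma adjusted p = 0.04182). That call was lost without EV tumour 1, 2 or 3 and without TAZ-4SA tumour 3, 4, 5 or 6, with limma adjusted p up to 0.1323.

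The C/EBP genes differed from one another. CEBPB, the liver-enriched activator of inflammation genes, was at 135, 58.9, 142, 19.9, 48.7 and 36.7 CPM in TAZ-4SA tumours 1 to 6 and at 58.9, 72.4 and 38.2 CPM in EV tumours 1 to 3. TAZ-4SA tumours 1 and 3 were above all EV tumours, tumours 4 and 6 below them, and the groups overlapped. The log2 fold change was 0.10 ± 0.58 (SE), with a 95% interval of -1.17 to 1.37 (limma adjusted p = 0.9117). Changes within that interval in either direction are compatible with these values, and the interval is not a limit of detection. The sign of the fold change turned to -0.14 without TAZ-4SA tumour 1, and to -0.15 without TAZ-4SA tumour 3 or EV tumour 3. CEBPB lies at chr20:50190583-50192690 (plus strand) and overlaps the antisense gene CEBPB-AS1, itself counted at a mean of 6.22 CPM in TAZ-4SA against 5.31 CPM in EV. The kit does not keep the strand, so reads of the stretch that both genes share cannot be assigned to either by strand.

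CEBPG, a C/EBP protein with no activation domain of its own that pairs with CEBPB and ATF4, was at 73.9, 76.2, 41.1, 129, 56.8 and 64.2 CPM in TAZ-4SA tumours 1 to 6 and at 19.9, 20.9 and 38.5 CPM in EV tumours 1 to 3. The groups did not overlap, though TAZ-4SA tumour 3 and EV tumour 3 lay close. Its log2 fold change was 1.45 ± 0.41 (SE; 95% interval 0.56 to 2.34; limma adjusted p = 0.02475). Without EV tumour 1 or 2 the call was lost (limma adjusted p = 0.1394 and 0.1319). CEBPG lies at chr19:33373709-33382686 (plus strand).

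CEBPD, an acute-phase factor, was at 34.1, 46.7, 32.0, 34.9, 33.0 and 21.7 CPM in TAZ-4SA tumours 1 to 6 and at 8.01, 15.4 and 22.8 CPM in EV tumours 1 to 3. All but TAZ-4SA tumour 6 were above every EV tumour. Its log2 fold change was 1.21 ± 0.49 (SE), with a 95% interval of 0.15 to 2.28, and did not pass over all genes (limma adjusted p = 0.09439). Array weights and a voom fit with a spread of its own per group called it higher, with adjusted p of 0.02803 and 0.03474. These fits called 2531 and 2181 of the 15578 genes higher, against 1405 in the reported fit. CEBPD is on chromosome 8.

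The ratio of CEBPG reads to CEBPB reads ran from 0.289 to 1.01 in EV and from 0.289 to 6.45 in TAZ-4SA. It was highest in TAZ-4SA tumour 4 and lowest in TAZ-4SA tumour 3 and EV tumour 2. Per kb of the median transcript, CEBPB made up 67.3% ± 15.7 (SD, n = 3) of the 3 C/EBP genes in EV and 48.2% ± 20.3 (SD, n = 6) in TAZ-4SA, ranges that overlapped.

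Among known targets of C/EBP beta and delta, PTX3, C3 and IL6 rose and HP fell. Of 11 tested, 3 were called higher, 1 lower and 7 not, with a median log2 fold change of 2.22. After quantile normalization 7 were called higher and 1 lower, with a median of 3.16. The pentraxin PTX3 rose from 4.11 ± 1.45 to 41.9 ± 15.2 CPM (3.29, limma adjusted p = 0.002365), and complement C3 from 42.9 ± 28.8 to 239 ± 132 CPM (2.69, limma adjusted p = 0.007006). Both kept the call without each tumour in turn. The cytokine IL6 rose from 0.657 ± 0.448 CPM to 19.6 ± 13.5 CPM (4.38, limma adjusted p = 0.01858), a call lost without any 1 EV tumour (limma adjusted p up to 0.1063). HP, which encodes haptoglobin, was at 30.4 ± 10.9 CPM in EV and had 0 reads in all 6 TAZ-4SA tumours (limma adjusted p = 0.0001725). SAA1, an acute-phase protein, was at 2.22 (limma adjusted p = 0.05568), called higher without TAZ-4SA tumour 5 (limma adjusted p = 0.0447), and the receptor IL1R1 at 0.85 (limma adjusted p = 0.2972).

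STAT3 was at 71.6, 88.6, 138, 67.3, 191 and 96.6 CPM in TAZ-4SA tumours 1 to 6 and at 177, 180 and 203 CPM in EV tumours 1 to 3. Only TAZ-4SA tumour 5 lay within the EV range and 5 of 6 were below it. Mean levels were 109 ± 47.4 CPM (SD, n = 6) in the former and 187 ± 14.3 CPM (SD, n = 3) in the latter. The log2 fold change of -0.88 ± 0.35 (SE; 95% interval -1.64 to -0.12) was at percentile 49.4 of all genes and did not pass (limma adjusted p = 0.0908). Genes at a mean of at least 10 CPM had a median log2 fold change of -0.41, so STAT3 was below the typical gene of that set. Without TAZ-4SA tumour 5 it was -1.06 and called (limma adjusted p = 0.01879), and without tumours 5 and 6 it was -1.09 (limma adjusted p = 0.03063). The recovered reads tested with voom called it lower (adjusted p = 0.0278), as did array weights (adjusted p = 0.005746). These fits called 3646 and 5630 of the 15578 genes lower, against 2079 in the reported fit. Quantile normalization (-0.78, limma adjusted p = 0.1255) and plain totals (-0.80, limma adjusted p = 0.1479) did not call STAT3. Neither did any fit without 1 EV tumour (limma adjusted p up to 0.2508), and 18 of 23 alternatives did not call it. STAT3 lies at chr17:42313324-42388442 (minus strand).

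Receptors and kinases that activate STAT3 included several that rose while STAT3 itself was not called. Of 12 tested, 5 were called higher, 2 lower and 5 not, with a median log2 fold change of 1.31. EGFR, a receptor tyrosine kinase, rose from 10.4 ± 2.15 CPM (SD, n = 3) to 375 ± 89.3 CPM (SD, n = 6) (5.15, limma adjusted p = 4.987e-07). IL6ST, the shared gp130 subunit of the IL6 family receptors, rose from 18 ± 6.61 to 199 ± 46.5 CPM (3.48, limma adjusted p = 2.781e-05). The oncostatin M receptor OSMR rose from 62.4 ± 7.62 to 230 ± 59.1 CPM (1.85, limma adjusted p = 0.001011) and the kinase JAK1 from 53.0 ± 5.20 to 151 ± 31.9 CPM (1.49, limma adjusted p = 0.002764). These 4 kept their call without each tumour in turn. The kinase SRC was at -3.14 (limma adjusted p = 0.06031), called lower without TAZ-4SA tumour 2, 3 or 5 (limma adjusted p down to 0.02301), and the receptor LIFR at 1.14 (limma adjusted p = 0.08347).

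Of 16 inhibitors of STAT3 signalling, 2 were called higher (4 after quantile normalization), 0 lower and 14 not, with a median of 0.22. The phosphatase PTPN11 rose from 54.3 ± 7.55 to 209 ± 63.9 CPM (1.90, limma adjusted p = 0.001088) and kept the call without each tumour in turn. PIAS1, an inhibitor of activated STAT proteins, rose by 1.47 (limma adjusted p = 0.03617), a call lost without EV tumour 1, 2 or 3 or TAZ-4SA tumour 1, 2 or 6 (limma adjusted p up to 0.1388). PIAS3, which binds STAT3, was at -1.13 (limma adjusted p = 0.05898), called lower without TAZ-4SA tumour 3 or 5 (limma adjusted p down to 0.0371), and the phosphatase PTPN1 at 0.28 (limma adjusted p = 0.5207).

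Known STAT3 targets moved both ways. Of 15 tested, 5 were called higher, 3 lower and 7 not, with a median of 0.30. HIF1A, the oxygen-regulated transcription factor, rose from 18.5 ± 2.39 CPM (SD, n = 3) to 854 ± 352 CPM (SD, n = 6), a log2 fold change of 5.43 (limma adjusted p = 1.056e-06). Cyclin D1 (CCND1) rose from 155 ± 38.9 to 537 ± 84 CPM (1.81, limma adjusted p = 0.0004725). The protease inhibitor SERPINA3 fell from 2370 ± 774 to 42.5 ± 36.2 CPM (-6.17, limma adjusted p = 3.219e-05) and the metalloproteinase inhibitor TIMP1 from 504 ± 54.1 to 182 ± 56.5 CPM (-1.53, limma adjusted p = 0.004116). All 4 kept their call without each tumour in turn. The survival factor MCL1 was at 0.51 (limma adjusted p = 0.2744), or 1.01 and called without EV tumour 3 (limma adjusted p = 0.03889), and VEGFA at 0.28 (limma adjusted p = 0.4967).

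BHLHE40, a helix-loop-helix repressor that feeds back on the circadian clock and responds to hypoxia, was at 183, 103, 392, 155, 405 and 273 CPM in TAZ-4SA tumours 1 to 6 and at 88.2, 74.9 and 163 CPM in EV tumours 1 to 3. TAZ-4SA tumours 1, 3, 5 and 6 were above all EV tumours, while tumours 2 and 4 lay between EV tumours. Its log2 fold change was 1.13 ± 0.45 (SE; 95% interval 0.15 to 2.10; limma adjusted p = 0.09042) and did not pass. Without TAZ-4SA tumour 2 it was 1.35 and called (limma adjusted p = 0.03368). BHLHE40 lies at chr3:4979437-4985323 (plus strand) and overlaps BHLHE40-AS1, itself counted at a mean of 2.15 CPM in TAZ-4SA against 0.278 CPM in EV. Reads of the stretch that both genes share cannot be assigned to either by strand.

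Clock genes around BHLHE40 showed 4 called higher, 1 lower and 9 not among 14 tested, with a median of -0.78. The median of all genes was -0.85, and that of genes at a mean of at least 10 CPM was -0.41. BHLHE41, its paralogue, rose from 3.57 ± 1.89 to 32.9 ± 12.9 CPM (3.16, limma adjusted p = 0.007902) and kept its call without each tumour in turn. The clock repressor NR1D2 rose by 2.08 (limma adjusted p = 0.009118), which was lost without EV tumour 2 (limma adjusted p = 0.06877). CLOCK, the activator of the core loop, rose by 2.06 (limma adjusted p = 0.0266), lost without EV tumour 1, 2 or 3 or TAZ-4SA tumour 6 (limma adjusted p up to 0.1101). NPAS2, its paralogue, fell from 190 ± 19.3 to 59.1 ± 28.9 CPM (-1.85, limma adjusted p = 0.01269), lost without EV tumour 1 or 2 (limma adjusted p up to 0.06373). The clock genes PER1 (-1.16, limma adjusted p = 0.2582) and NR1D1 (-1.44, limma adjusted p = 0.5808) did not pass. NR1D1 was at 0.04 without TAZ-4SA tumour 2, and PER1 at -0.27 without EV tumour 3 and -2.10 without EV tumour 2.

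RELB was at 24.8, 68.1, 29.6, 13.3, 75 and 32.1 CPM in TAZ-4SA tumours 1 to 6 and at 18, 21.3 and 32.4 CPM in EV tumours 1 to 3. TAZ-4SA tumours 2 and 5 were above all EV tumours, tumour 4 was below them, and the groups overlapped. The log2 fold change was 0.56 ± 0.57 (SE; 95% interval -0.67 to 1.80; limma adjusted p = 0.4891). Its pathway partners and inputs gave 1 call in 14, the ubiquitin ligase BIRC3, which rose from 2.39 ± 0.786 to 25.2 ± 22.3 CPM (3.06, limma adjusted p = 0.03008). That call was lost without TAZ-4SA tumour 4 or EV tumour 1, 2 or 3 (limma adjusted p up to 0.1400). The median over the list was -0.08, or 0.36 after quantile normalization, which called 2 higher and 1 lower, and the receptors TNFRSF12A (0.94, limma adjusted p = 0.3333) and LTBR (-1.65, limma adjusted p = 0.5328) did not pass. Without TAZ-4SA tumour 2, LTBR was at -0.10, and TNFRSF12A ran from 0.43 to 1.64 without each tumour in turn. RELB lies at chr19:45001464-45038192 (plus strand).

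Of 14 other members of these families, 2 were called higher, 0 lower and 12 not, with a median of -0.26, or 0.13 after quantile normalization. BHLHE41 was 1 of them and the NF-kappaB subunit REL the other, at 3.08 ± 1.5 CPM in EV and 18.7 ± 5.24 CPM in TAZ-4SA (2.60, limma adjusted p = 0.04154). The call of REL was lost without TAZ-4SA tumour 4 or 6 and without any 1 EV tumour (limma adjusted p up to 0.1960). The NF-kappaB subunit RELA was at -0.36 (limma adjusted p = 0.537). Voom on the recovered reads called 0 of the 14 higher and 3 lower, and a pseudocount of 2 CPM called 2 higher and 3 lower. Over all 15578 genes voom called 1291 higher and 3646 lower, and the pseudocount of 2 CPM called 1489 and 2635. For 3 of the 14 all TAZ-4SA tumours were below all EV tumours, and for 2 above, against 21.3% and 10.8% of all genes.

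Among 11 other regulators tied to mesenchymal glioblastoma or to epithelial-mesenchymal transition, 5 were called higher, 0 lower and 6 not, with a median of 0.58. The zinc-finger repressor SNAI2 rose from 13.6 ± 2.59 CPM (SD, n = 3) to 174 ± 39.4 CPM (SD, n = 6), a log2 fold change of 3.65 (limma adjusted p = 1.223e-05), similar in size to that of RUNX2. The AP-1 subunits FOSL2 and FOSL1 rose by 3.38 (limma adjusted p = 0.0004092) and 2.98 (limma adjusted p = 0.003359), from 34.5 ± 18.9 to 370 ± 190 CPM and from 59.4 ± 53.8 to 415 ± 200 CPM, although the groups overlapped for FOSL1. ZBTB18, known as a repressor of the mesenchymal pattern, rose from 32.4 ± 11.6 to 108 ± 33.1 CPM (1.73, limma adjusted p = 0.005752). These 4 kept the call without each tumour in turn. ELF4 (0.54, limma adjusted p = 0.6335) and MAFK (0.52, limma adjusted p = 0.7118), further factors of that list, did not pass. Without TAZ-4SA tumour 2, ELF4 was at 1.15 and called (limma adjusted p = 0.03254).

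**Figure D4:**
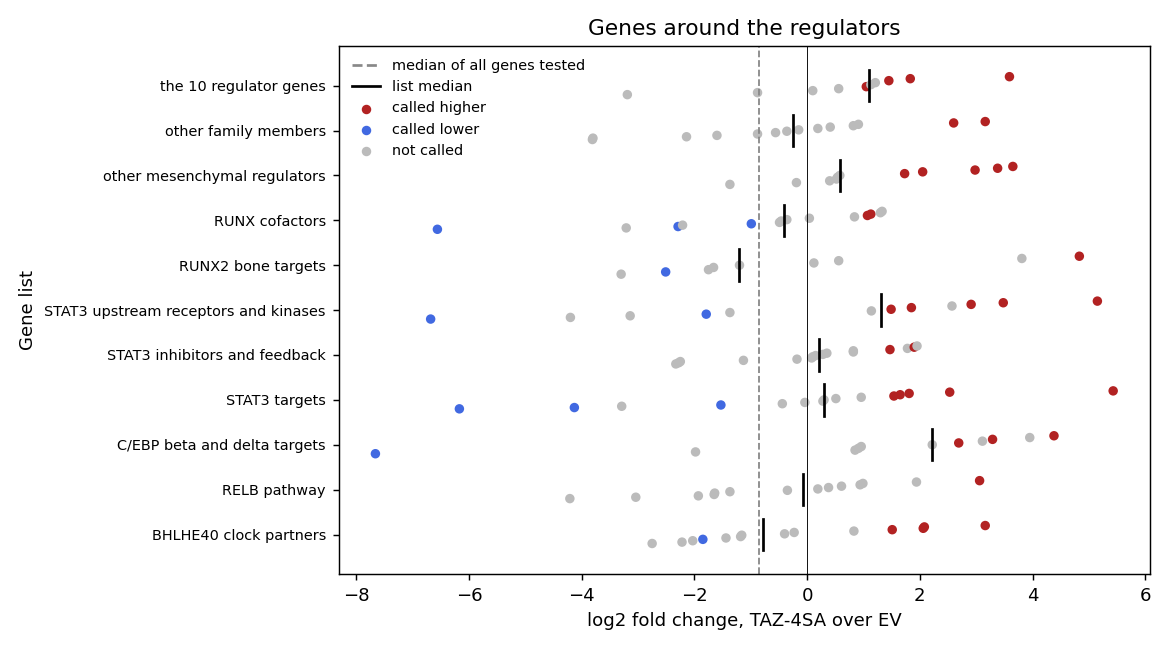
log2 fold change of TAZ-4SA over EV (horizontal axis) for every tested gene of each list (vertical axis), red where called higher, blue where called lower and grey where not called, with a black bar at the list median and a dashed line at -0.85, the median of all genes tested. The 10 regulator genes have a median of 1.09, the STAT3 upstream list 1.31, and the clock list -0.78.

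The order of the levels differed between groups. Ranks between genes rest on the transcript length chosen, and the values are first given per kb of the median transcript. STAT3 was highest in EV at 69.1 ± 5.28 (SD, n = 3), above CBFB at 47.1 ± 10.2. BHLHE40 at 31.3 ± 13.7, CEBPB at 28.9 ± 8.81 and RUNX1 at 24.9 ± 11.3 followed, within each other's spread. RELB at 10.6 ± 3.34, CEBPD at 7.08 ± 3.40 and CEBPG at 6.65 ± 2.63 came next, again within their spread, and RUNX3 at 2.39 ± 0.928 and RUNX2 at 2.23 ± 0.833 were lowest. In TAZ-4SA, CBFB at 98.8 ± 24.8 (SD, n = 6), RUNX1 at 87.1 ± 25.7 and BHLHE40 at 72.5 ± 36.4 led, followed by STAT3 at 40.2 ± 17.5, CEBPB at 37.7 ± 26.7 and RUNX2 at 26.6 ± 6.35, neighbours that did not differ beyond their spread. CEBPG at 18.5 ± 7.52, RELB at 18 ± 11.1 and CEBPD at 15.5 ± 3.67 were close together, and RUNX3 at 0.87 ± 1.05 was last. Per kb of the longest transcript, STAT3 at 37.0 still led in EV, followed by BHLHE40 at 31.3 and CEBPB at 28.9, with CBFB at 10.7 in place 4. In TAZ-4SA the order was then BHLHE40 at 72.5, CEBPB at 37.7, CBFB at 22.5, STAT3 at 21.5, RUNX1 at 19.0, and, in place 7, RUNX2 at 17.9. RUNX3 was last in TAZ-4SA and RUNX2 last in EV by both lengths.

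Single tumours carried part of the spread. EV tumour 3 had the highest EV value for 8 of the 10 genes and the lowest for RUNX3 and CEBPB. Over all genes tested it was highest for 42.8% and lowest for 39.7%. Its log2 distance from the mean of EV tumours 1 and 2 had a median of 0.788 over the 10 genes and of 0.0174 over all genes. In TAZ-4SA, tumours 1 and 3 had the highest CEBPB and the lowest RUNX1, RUNX2 and CBFB of the group. The SD of log2 CPM across TAZ-4SA tumours had a median of 0.561 over the 10 genes and of 0.948 over the 10514 genes at 10 CPM or more. Across EV tumours these medians were 0.510 and 0.234, and 8 of the 10 genes were below 0.948 in TAZ-4SA and 9 of the 10 above 0.234 in EV. The exceptions were RUNX3 (SD 3.03) and CEBPB (SD 1.10) in TAZ-4SA and STAT3 (SD 0.11) in EV.

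The genes most like a regulator across the 9 tumours were taken as those with the smallest root mean square difference of centred log2 CPM, among 12072 genes at a mean of 5 CPM or more. For RUNX1 they were ZBTB18 (0.20), TRAF6 (0.23) and USP31 (0.25), against a median of 1.62 over the genes compared. For RUNX2 they were FHIP2A (0.25), PRKAG2 (0.29) and PALS1 (0.30), with a median of 2.28. STAT3 was followed most closely by FBRSL1 (0.18), IMPDH1 (0.19) and USP22 (0.21), with a median of 1.38. BHLHE40 was nearest to RNF169 (0.29), AEN (0.33) and EIF2AK4 (0.34), and CEBPB to PPP1R3B (0.40), MINDY2 (0.43) and PRR14L (0.43), with medians of 1.45 and 1.48. The tumours share their group, so a gene with a like group difference scores as alike.

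Markers of other cells were measured beside these genes, since RUNX1, RUNX3, CEBPB and RELB are also active in blood cells. Host cells in these tumours are mouse cells, while the values are of human genes, so they do not measure host cells directly. Reads of LN229 cells and mouse reads assigned to human genes cannot be told apart here. Of 10 myeloid markers, 8 were in the table and summed to 54.7 to 142 CPM in TAZ-4SA against 21.4 to 31.0 CPM in EV, mostly CD68 at means of 88.2 and 16.4 CPM. PTPRC, which defines blood cells, was at 12.4 CPM in TAZ-4SA tumour 2 and at 0 reads in the other 5 TAZ-4SA tumours. In EV its mean was 0.035 CPM. P2RY12 was at 0 reads in all TAZ-4SA tumours and at a mean of only 0.131 CPM in EV. TAZ-4SA tumour 4 had the lowest myeloid sum of its group, 54.7 CPM, with the lowest CEBPB, 19.9 CPM, and the highest RUNX2, 144 CPM. Tumour 1 had the highest myeloid sum, 142 CPM, with CEBPB at 135 CPM and RUNX2 at 87.2 CPM. The other tumours did not keep that order. Tumours 2, 3, 5 and 6 had sums of 83, 108, 133 and 115 CPM. Their CEBPB was at 58.9, 142, 48.7 and 36.7 CPM and their RUNX2 at 99.5, 71.4, 107 and 102 CPM. The 2 lymphoid markers in the table, of 8 listed, were at 0 reads in TAZ-4SA and summed to 2.26 to 2.67 CPM in EV. Neuron markers (8 of 8) summed to 84.5 to 1360 CPM in TAZ-4SA, with 1020 and 1360 CPM in tumours 5 and 6, and to 46.1 to 166 CPM in EV, where tumour 3 was highest. Oligodendrocyte markers (6 of 6) summed to 29.9 to 381 CPM in TAZ-4SA against 543 to 658 CPM in EV. In EV the sum was mostly CNP, at means of 359 CPM there and 29.5 CPM in TAZ-4SA. MOBP and MOG were at 0 reads in TAZ-4SA and at means of only 0.68 and 0.111 CPM in EV. Astrocyte markers (6 of 6) summed to 61.6 to 210 and 56.8 to 69.2 CPM, and endothelial and pericyte markers (9 of 10) to 50.8 to 150 and 65.3 to 145 CPM. EMCN was at 0 reads in TAZ-4SA and at a mean of only 0.679 CPM in EV. Without tumours 5 and 6, RUNX1 (1.71, limma adjusted p = 0.02072), RUNX2 and CEBPG (1.55, limma adjusted p = 0.04495) were still called and CBFB was not (0.88, limma adjusted p = 0.0658). The part of the myeloid and oligodendrocyte markers in these differences was not tested. Of the glioblastoma markers, VIM was at means of 2250 CPM in TAZ-4SA against 1820 CPM in EV, and CD44 at 309 and 97.6 CPM. NES was at 158 and 1320 CPM, SOX2 at 10.8 and 37.9 CPM, OLIG2 at 4.19 and 35 CPM, and S100B at 2.95 and 208 CPM. SOX2, OLIG2 and S100B reached 0 reads in some TAZ-4SA tumours. GFAP was at means of 22.6 and 12.6 CPM, with 104 CPM in TAZ-4SA tumour 5 and 0 reads in 1 TAZ-4SA tumour.

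**Figure D5:**
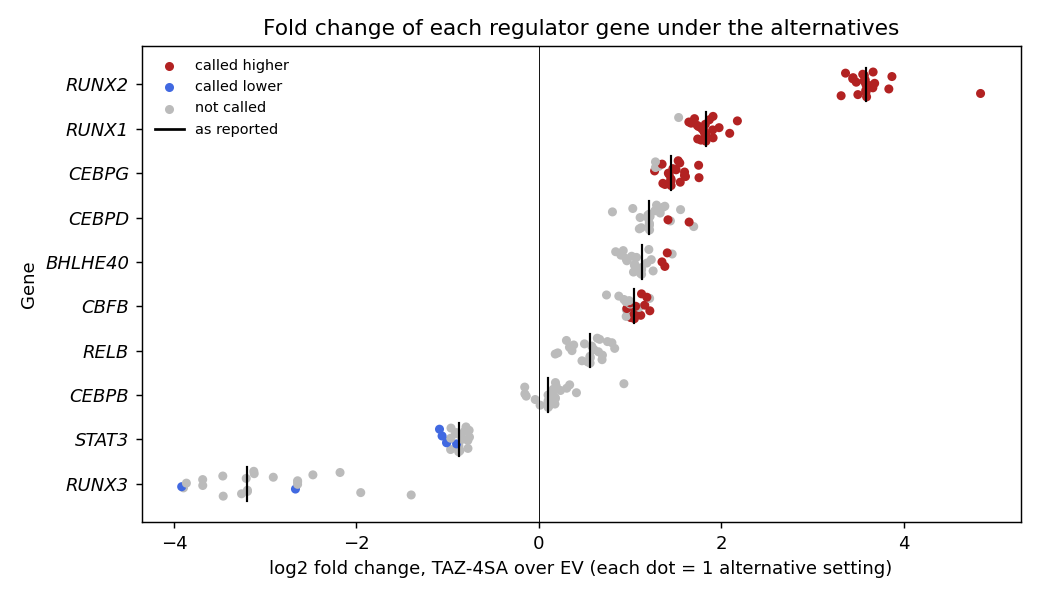
log2 fold change of TAZ-4SA over EV (horizontal axis) of each regulator gene (vertical axis), with a dot for each alternative setting (23, or 22 for RUNX3) and a black bar for the reported value, red where called higher, blue where called lower and grey where not called. RUNX2 is called in all 23 and spans 3.31 to 4.84, and CEBPB lies on both sides of 0.

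Over 23 alternative settings of scaling, filter, test and samples, RUNX2 was called higher in 23, RUNX1 in 22, CEBPG in 20 and CBFB in 13. BHLHE40 was called higher in 3 and CEBPD in 2, and STAT3 was called lower in 5. RUNX3 was called lower in 2 of the 22 settings that could test it. CEBPB and RELB were called in none.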

How the data were processed

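Total RNA of 9 LN229 tumours was made into libraries with a full-length SMART-Seq kit and Nextera XT, per the labels' protocols, which keeps no strand. HISAT2, edgeR and GRCh38 are named in the submitters' processing notes without roles. The sources used here do not give the counting tool or any removal of mouse reads. The authors deposited log2 CPM values, a unit read from the values: the lowest was the same in 9 columns and stands for a prior of 0.145 CPM. With the prior removed, 100% of values under 5000 reads were whole multiples of 1 read within 0.1 read. CPM is printed without the prior, and columns then summed to between 923378 and 1131059, so the authors scaled library sizes beyond plain totals. Floors cover counting error only. The closest pair of tumours within a group, EV 1 and EV 2, differed beyond sampling noise, at 18.56 chi-square units per degree of freedom.

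limma 3.58.1 (R 4.3.3), with trend and robust empirical Bayes, tested the 15578 genes whose mean reached 1 CPM (prior included) on the deposited log2 values with group as the only factor. Benjamini-Hochberg adjustment ran over all of them, at 0.05. Fold changes include the prior, which pulls those of low genes toward 0. They compare mean log2 values, so tumours at 0 reads weigh heavily and can make a fold change larger than the ratio of mean CPM. WWTR1 had an exact permutation test. The members and gene lists were chosen with earlier results of these data known, so counts over a list are descriptions. Genes named are the 10 regulators, WWTR1, from each list up to 4 called genes with the smallest p and up to 2 others with the highest mean, and the 3 genes most like 5 of the regulators; the marker genes are those of fixed lists. Some genes that this rule selects are not reported here. CEBPE, CBFA2T3, MMP13, ORM1, BGLAP, SP7 and IL1B of the lists are not analysed here. Gene positions and promoters come from RefSeq (GRCh38.p14) and transcript lengths from GENCODE. Alternatives were pseudocounts, median-of-ratios, quantile and plain scaling, filters, no robust step, array weights, voom on the recovered reads, a block for the replicate number, each tumour or sets of tumours left out, and the longest transcript for lengths. Plain totals and the longest transcript were added after seeing the data.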

Additional observations from a re-analysis of the deposited data

Results flagged for a closer look

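Of 87 sets of values within the TAZ-4SA group, 6 had a single tumour far from the rest by Dixon's criterion (0.625 for 6 samples), and chance alone marks about 1 in 20. The ratio of CEBPG to CEBPB reads was 6.45 in TAZ-4SA tumour 4, with the next tumour at 1.75. The non-canonical NF-kappaB ligase BIRC3 was at 69.9 CPM in TAZ-4SA tumour 4, the next being 21.2 CPM. The clock gene PER1 was at 444 CPM in tumour 5, the next at 165 CPM. SAA1, an acute-phase protein, was at 113 CPM in tumour 3 and 36.8 CPM in the next. SPP1, osteopontin, was at 88.5 CPM in tumour 2 and 32.1 CPM in the next. The corepressor TLE2 was at 18.8 CPM in tumour 5 and 3.36 CPM in the next.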

How the results depend on the processing

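The counts of calls moved with the weighting and with the EV tumours left out. In place of 3484, array weights called 8161 of all genes and voom with a spread per group 6926. Leaving out 1 tumour gave 1450 to 4230 genes called, and the 3 lowest counts each lacked an EV tumour. The number of regulators called higher was 2 to 5 and called lower 0 to 1 without 1 tumour. Called lower were 2 regulators under array weights, 1 under voom and 2 under voom with a spread per group. Without TAZ-4SA tumours 5 and 6 it was 1, against 0 in the reported fit. Of all 15578 genes, array weights called 5630 lower, voom 3646 and voom with a spread per group 4745. The fit without tumours 5 and 6 called 2663 of 15432 genes lower, and the reported fit 2079 of 15578. The WWTR1 difference was 1.34 to 1.55 without each tumour. CEBPB reversed to -0.04 under array weights, and without 1 tumour it ran from -0.15 to 0.41, negative without TAZ-4SA replicate 1 or 3 or EV replicate 3. Quantile normalization turned the split of calls over all genes from 1405 higher and 2079 lower to 1920 higher and 1624 lower. Without genes under a mean of 10 CPM the split was 1392 and 967, and under voom 1291 and 3646. The causes were not tested. The 3299325 and 3144861 reads of TAZ-4SA tumours 5 and 6 put their floors of 3 reads at 0.840 and 0.917 CPM. RUNX3 had 0 reads in TAZ-4SA tumours 2, 4 and 5, whose libraries held 9151541, 31468135 and 3299325 reads. Those libraries had 7365, 6573 and 2990 genes at 0 reads. In tumours 1, 3 and 6 RUNX3 had 97, 159 and 17 reads, with 5232, 6790 and 4964 genes at 0 reads. The cause of the RUNX3 zeros was not tested.

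The labels do not say whether the replicate numbers pair the tumours. Same-numbered tumours had correlations of their deviations of 0.034, 0.003 and -0.048, and tumours of unlike number -0.042 to 0.079. Such correlations cannot settle whether same-numbered tumours shared an injection or processing step. Numbers 4 to 6 occur in TAZ-4SA only, so a fit with the replicate block compares only tumours 1 to 3 of each group. With this block, 2661 genes were called, 604 higher and 2057 lower, and 1 regulator (RUNX2) was called higher. RUNX1, CEBPG and CBFB were then not called, with limma adjusted p of 0.1284, 0.1867 and 0.2642. WWTR1, the gene of the construct, was not called either (1.41, limma adjusted p = 0.05941).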
